A study of Mus musculus with 4 samples.

Results

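Glutamate is the main excitatory transmitter of the cerebral cortex, and its receptors fall into a few gene families. The genes described here are those whose symbols name AMPA receptor subunits (Gria1 to Gria4), kainate receptor subunits (Grik1 to Grik5), NMDA receptor subunits (Grin1, Grin2a to Grin2d, Grin3a and Grin3b), metabotropic receptors (symbols that start with Grm), and auxiliary subunits (Cacng2 to Cacng8, Cnih2, Cnih3, Neto1 and Neto2). By this rule 35 of the 32531 gene names in the count files were taken: 4 AMPA, 5 kainate, 7 NMDA, 8 metabotropic and 11 auxiliary genes.

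The libraries came from the cerebral cortex of adult mice of the line Cbln1-TRAP NIDA030, named for the cerebellin gene Cbln1, in which ribosomal protein Rpl10a carries EGFP; the labels do not say which cortical cells make the tagged protein. The IP group (2 libraries) held ribosome-bound RNA captured with antibodies to EGFP, and the input group (2 libraries) held total RNA of cortex homogenate. Both groups carry the transgene, so the comparison is of captured against total RNA and not of genotypes. The libraries are numbered 2 and 4 in each group. Nothing in the labels ties a library to an animal, and the p-values therefore measure only how far these 4 libraries spread, which may be technical. The IP pair carries the mark of lane 1 and the input pair that of lane 2, and the effects of lane and group cannot be told apart.

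AMPA, kainate and NMDA receptors are ion channels of assembled subunits. AMPA receptors carry most of the fast excitatory current, NMDA receptors need the obligatory subunit GluN1 (from Grin1) together with GluN2 or GluN3 subunits, and kainate receptors tune release and excitability on either side of the synapse. Metabotropic receptors act through G proteins: group I (such as Grm5) through Gq, and group II (Grm2, Grm3) and group III (Grm4, Grm6, Grm7, Grm8) through Gi and Go. Auxiliary subunits travel with the channels and set their trafficking and gating: TARPs (Cacng2, Cacng3, Cacng4, Cacng5, Cacng7, Cacng8) and cornichons (Cnih2, Cnih3) with AMPA receptors, and Neto1 and Neto2 with kainate receptors. Cacng6 encodes a related calcium channel subunit that is not classed as a TARP.

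Total gene counts were 41334423 and 47567384 in IP 2 and IP 4 and 41385301 and 39750468 in input 2 and input 4. Levels are given in CPM, the count divided by the TMM-scaled library size (an effective library size computed by edgeR) and expressed per 1e6, and a floor of 3 counts was 0.0660 to 0.0789 CPM, which covers counting error only. Neuronal markers were high in all 4 libraries: 12 of 12 pan-neuronal markers were detected, with a summed level of 39264 to 41974 CPM in IP and 17810 to 18710 CPM in input. Most of that sum was Snap25, with a mean of 26245 CPM in IP and 10717 CPM in input. By the test given below, 10 of the 12 were higher in IP, beside 23.4% of all genes tested. Map2 was lower (mean of 342 CPM in IP and 1058 CPM in input), beside 22.4% of all genes tested. Summed levels of 12 glutamatergic neuron markers were 6986 to 7235 CPM in IP and 5118 to 5390 CPM in input, of 12 GABAergic markers 1078 to 1291 and 1175 to 1210 CPM, and of 12 astrocyte markers 3787 to 4124 and 4077 to 4077 CPM. Oligodendrocyte markers (10 genes) summed to 1445 to 1474 CPM in IP and 1834 to 1917 CPM in input, and striatal projection neuron markers (10 genes) to 499 to 547 and 711 to 741 CPM. Oligodendrocyte precursor markers (10 genes, 168 to 200.01 CPM in IP and 197 to 198 in input), microglial markers (10 genes, 64.5 to 70.0 and 63.8 to 69.7 CPM) and endothelial markers (10 genes, 11.2 to 12.02 and 11.99 to 16.5 CPM) were also present, and no marker of these lists was at 0 in all libraries. The part of these cell types in the differences between IP and input was not tested. In bulk libraries, fewer cells of a type and less RNA per cell cannot be told apart. Since IP held ribosome-bound and input total RNA, neither can be told apart from the part of an RNA bound to ribosomes.

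The coding stretch that holds the Q/R site is shown for the AMPA subunits and for 2 kainate subunits, because it is the best known point at which the RNA of these receptors is altered after transcription. The RNA of Gria2, and part of that of Grik1 and Grik2, is edited there from A to I, chiefly by the deaminase encoded by Adarb1, and the edited codon lowers the calcium permeability of the channel. The capitals mark the codon of the site, read from GENCODE vM21 transcripts on GRCm38, on the coding strand.
Gria1: ggggccttcatgCAGcaaggatgtgacatt
Gria2: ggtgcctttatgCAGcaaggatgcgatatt
Gria3: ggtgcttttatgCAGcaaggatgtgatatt
Gria4: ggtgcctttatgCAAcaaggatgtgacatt
Grik1: ggagctctcatgCAGcaaggatcggagctg
Grik2: ggagctctcatgCAGcaaggttctgagctc
The stretches lie in coding exons. Gria1 is read from exon 11 of 16 at chr11:57243082-57243111 (plus strand), Gria2 from exon 11 of 16 at chr3:80706896-80706925 (minus strand), Gria3 from exon 11 of 16 at chrX:41610253-41610282 (plus strand) and Gria4 from exon 12 of 17 at chr9:4464122-4464151 (minus strand). The Grik1 stretch crosses from exon 12 to exon 13 of 17 on chromosome 16 (87940538 to 87940556 and 87936105 to 87936115, minus strand), and the Grik2 stretch from exon 13 to exon 14 of 17 on chromosome 10 (49244325 to 49244343 and 49240786 to 49240796, minus strand). Of the 6 genes, 5 have the codon CAG in the reference, and Gria4 has CAA. The files hold counts per gene and not bases, so the edited share of these transcripts was not measured here.

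Across the 5 classes, 32 of the 35 genes passed the filter on low counts and were tested. Of these, 3 were higher in IP (Grm2, Grin1 and Grm8), 12 were lower, and 17 were not called. A call is an adjusted p under 0.05 by the quasi-likelihood test of edgeR, with Benjamini-Hochberg adjustment over all genes tested. Over all 16600 genes tested, 45.8% were called in either direction, 23.4% as higher and 22.4% as lower, so that the receptor genes had a smaller share of higher genes (9.38%) and a larger share of lower genes (37.5%). There were 30 receptor genes whose mean reached 5 CPM, of which 3 were higher and 11 (36.7%) lower, with a median log2 fold change of -0.16, whereas among all 10399 genes tested in the same range of levels 34.4% were higher and 20.4% lower, with a median of 0.12. The libraries of the groups did not overlap in 25 of the 32 genes (78.1%), beside 73.0% of all genes tested. These shares are descriptions, and no test of the list was made. Scaling moved this split: under library sizes alone, 2 receptor genes were higher and 20 lower, beside 2153 and 5902 of all genes, since the median of all genes then moved by -0.26 on the log2 scale.

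The summed level of the 35 genes was 3626 and 3540 CPM in IP 2 and IP 4 and 3880 and 3914 CPM in input 2 and input 4. The order of the genes by level spanned a wide range within each class, as the plot of levels by library shows. Gria2 was counted most, and Grin3b, Grm6 and Cacng6 were near the floor.

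**Figure D1:**
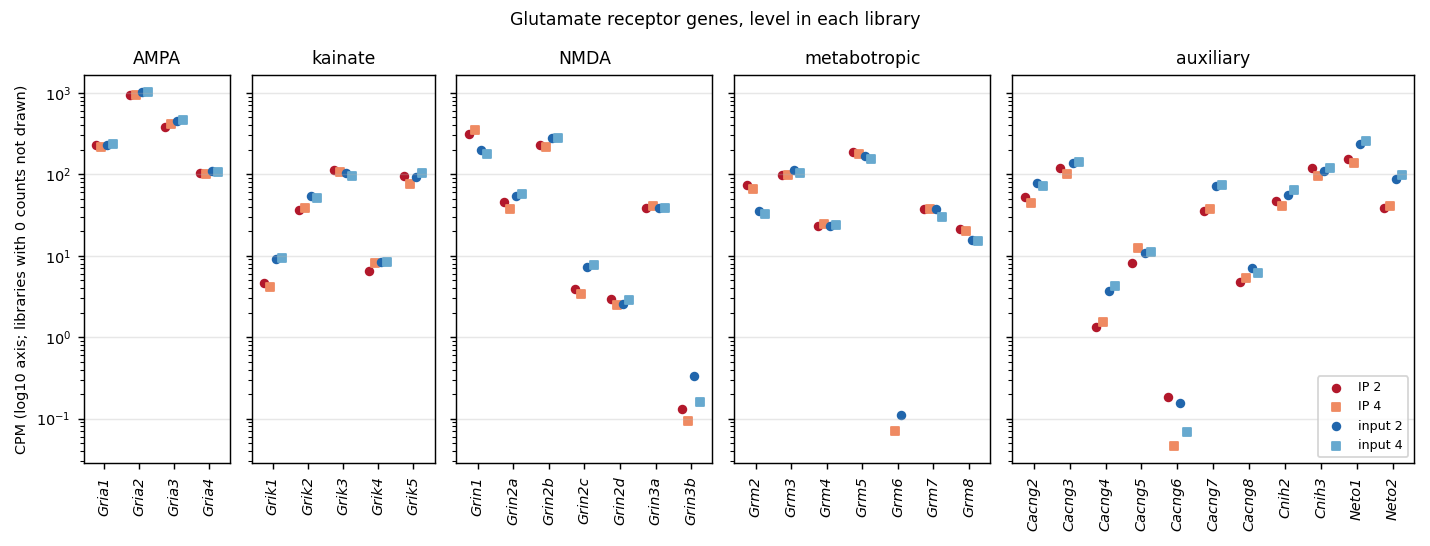
Level of 34 of the 35 genes in each library, in CPM on a log10 axis, by class; red and orange points are IP 2 and IP 4, dark and light blue points input 2 and input 4. The 4 libraries of each AMPA subunit lie close together, whereas Grin1 and Grm2 lie higher in IP and Neto2, Cacng7 and Cacng4 lower.

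AMPA subunits did not differ between IP and input by the test. Gria2, which encodes the subunit that makes AMPA receptors impermeable to calcium once edited, stood at 953 and 939 CPM in IP 2 and IP 4 and at 1015 and 1019 CPM in input 2 and input 4. The IP libraries lay just below the input libraries, by -0.10 on the log2 scale (SE 0.08, 95% interval -0.28 to 0.07, edgeR adjusted p = 0.323). Gria3 was at 382 and 417 CPM in IP and 445 and 469 CPM in input, which is -0.20 on the log2 scale (SE 0.09, 95% interval -0.38 to -0.01, edgeR adjusted p = 0.0801). Gria1, the subunit inserted into synapses during potentiation, was at 230 and 213 CPM in IP and 232 and 233 CPM in input (log2 fold change -0.07, 95% interval -0.26 to 0.12). Gria4, which is used early in development and in interneurons, was at 103 and 99.6 CPM in IP and 110 and 108 CPM in input (log2 fold change -0.11, 95% interval -0.31 to 0.09).

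In all 4 AMPA genes the IP libraries lay below the input libraries, as they did in 6268 of all 16600 genes tested. None of the 4 was called, and the class median was -0.11 beside -0.04 for all genes tested. The intervals do not include a 1.5-fold difference in either direction. With library sizes alone all 4 were called as lower, with values from -0.33 to -0.46, and with the stricter filter on low counts Gria2 (-0.22, edgeR adjusted p = 0.0310) and Gria3 (-0.31, edgeR adjusted p = 0.00480) were. The correction for GC content and transcript length turned Gria2 to 0.18, a call as higher at an adjusted p of 0.0499 by edgeR (range over its 13 alternatives 0.000999 to 0.558). Per kilobase of exon, Gria2 was the largest part of the class, with 39.7% and 39.3% in IP and 39.3% and 38.8% in input. Gria3 (26.3% ± 1.70 in IP and 27.7% ± 0.711 in input, SD, n = 2 each), Gria1 (23.8% ± 1.21 and 22.96% ± 0.181) and Gria4 (10.4% ± 0.195 and 10.3% ± 0.223) kept the order of the shares, and the neighbours Gria3 and Gria1 lay close together in IP 2 (25.1% and 24.7%). Their closeness rests on the length used: scaled to the longest transcript, Gria3 was 33.8% and Gria1 17.7% of the class in IP, and 35.4% and 16.9% in input.

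**Figure D2:**
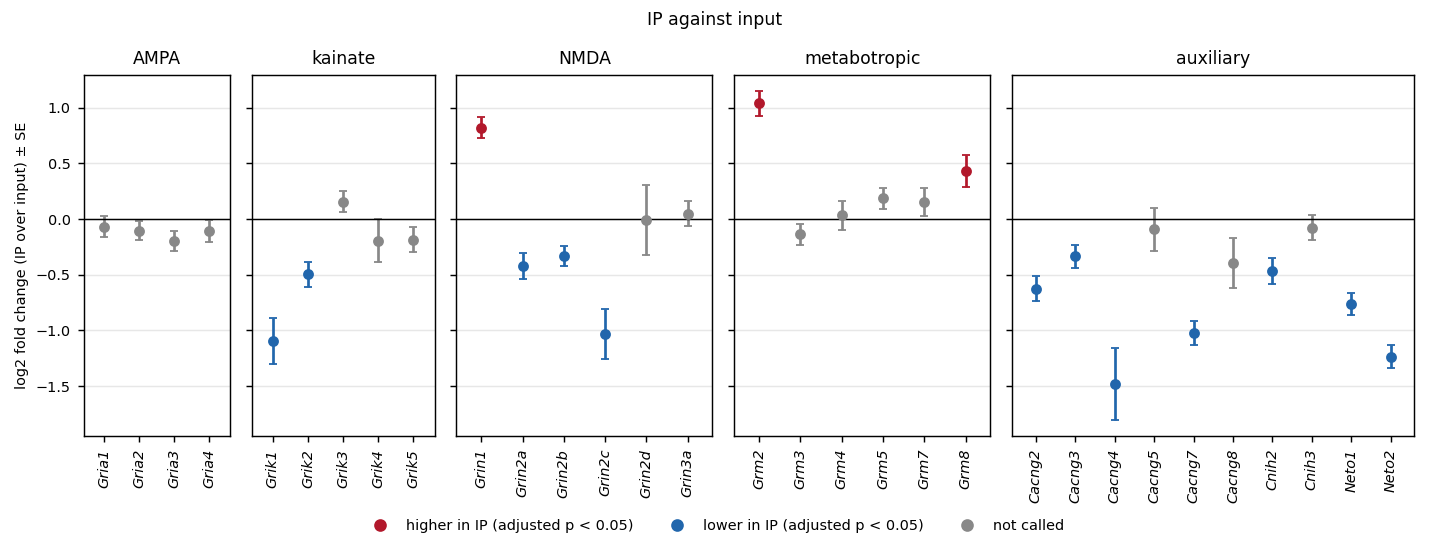
Log2 fold change of IP over input for 31 of the 32 genes tested, by class, with the standard error; red marks genes called as higher in IP, blue genes called as lower and grey genes that were not called (adjusted p of 0.05). The 4 AMPA subunits are grey and near 0, the auxiliary subunits all lie below 0, and Grm2 (1.04) and Grin1 (0.82) lie highest.

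NMDA receptor subunits moved apart: of the 6 tested, 1 (16.7%) was higher and 3 (50%) were lower, beside 23.4% and 22.4% of all genes tested. Grin1, which encodes the obligatory subunit GluN1, stood at 312 and 354 CPM in IP 2 and IP 4 and at 199 and 178 CPM in input 2 and input 4. Both IP libraries lay well above both input libraries, a 1.77-fold difference (log2 fold change 0.82, SE 0.10, edgeR adjusted p = 1.58e-06), and the gene was called under all 13 alternatives (0.50 to 0.93). Grin2b, the GluN2 subunit that predominates early in life and binds CaMKII, stood at 231 and 214 CPM in IP and at 282 and 278 CPM in input. The difference was -0.34 on the log2 scale (SE 0.09, edgeR adjusted p = 0.00517), opposite to that of Grin1.

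Grin2a, the GluN2 subunit that gains in adult cortex, was at 45.6 and 37.4 CPM in IP and at 53.9 and 57.1 CPM in input (log2 fold change -0.42, SE 0.12, edgeR adjusted p = 0.00709). The call was lost without IP 4 (-0.27, edgeR adjusted p = 0.116; range over 13 alternatives 6.23e-05 to 0.487). Grin2c, a subunit better known from cerebellar granule cells and astrocytes, was lower at 3.89 and 3.35 CPM in IP against 7.21 and 7.60 CPM in input (log2 fold change -1.03, SE 0.23, edgeR adjusted p = 0.00105). Astrocyte markers as a list were split beside it, with 5 of 12 (41.7%) higher and 5 (41.7%) lower, beside 23.4% and 22.4% of all genes tested. Their summed level overlapped between the groups. Taken singly, all 12 had groups that did not overlap, 6 above and 6 below input, beside 73.0% of all genes tested. Of the 3 GluN2 genes called as lower, Grin2c alone kept its call with the correction for GC content and transcript length (-1.35): Grin2a was then at -0.11 and Grin2b at 0.17, neither of them called. The transcripts of Grin2a and Grin2b are long, at 14634 and 24060 bases in the annotation, against 4276 bases for Grin1 and 4895 bases for Grin2c.

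The other NMDA receptor genes did not pass the test or were not tested. Grin3a, whose product lowers calcium flux through the receptor, was at 38.1 and 40.9 CPM in IP and 38.2 and 38.2 CPM in input, or 0.05 on the log2 scale with a 95% interval of -0.19 to 0.29. Grin2d, a subunit of interneurons and the developing brain, was at 2.92 and 2.45 CPM in IP and 2.57 and 2.82 CPM in input, with a wide interval of -0.67 to 0.65. Grin3b had 5 and 4 counts in IP and 15 and 7 in input and was left out by the filter.

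The make-up of the NMDA class differed between the libraries of the groups. Per kilobase of exon, Grin1 was 66.5% and 70.7% of the class in IP and 51.4% and 48.5% in input, and Grin2b 19.2% and 16.7% in IP and 28.5% and 29.6% in input. The ratio of Grin2b to Grin1 was 0.289 and 0.236 in IP and 0.555 and 0.611 in input, whereas that of Grin2a to Grin2b overlapped between the groups (0.274 and 0.243 in IP, 0.265 and 0.284 in input). With 2 libraries against 2, an exact permutation test cannot go below p = 0.333, which is the value these non-overlapping shares and ratios reach, so they are given as descriptions. Of 12 such ratios computed within the classes, 7 did not overlap between the groups, and those of Grin2a and Grin2b to Grin1 share a denominator. No such share was computed for ratios of other genes. In level, the groups did not overlap in 73.0% of all genes tested, so this count shows nothing particular to the receptor genes. Scaled to the longest transcript instead of all annotated exons, Grin1 was 80.6% of the class in IP and 66.0% in input, and Grin2b 9.61% and 17.5%. These shares and ratios carry no correction for GC content and transcript length. The ratio of Grin2b to Grin1 differed by -1.16 on the log2 scale, whereas with that correction Grin1 stood at 0.50 and Grin2b at 0.17, so that the gap between the genes was much smaller. Exons of Grin1 overlap an antisense gene, Grin1os, over 13.5% of their length. Grin1os itself held 7 and 10 counts in IP and 47 and 42 in input, against 11861 and 15286 and 9039 and 7706 for Grin1.

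**Figure D3:**
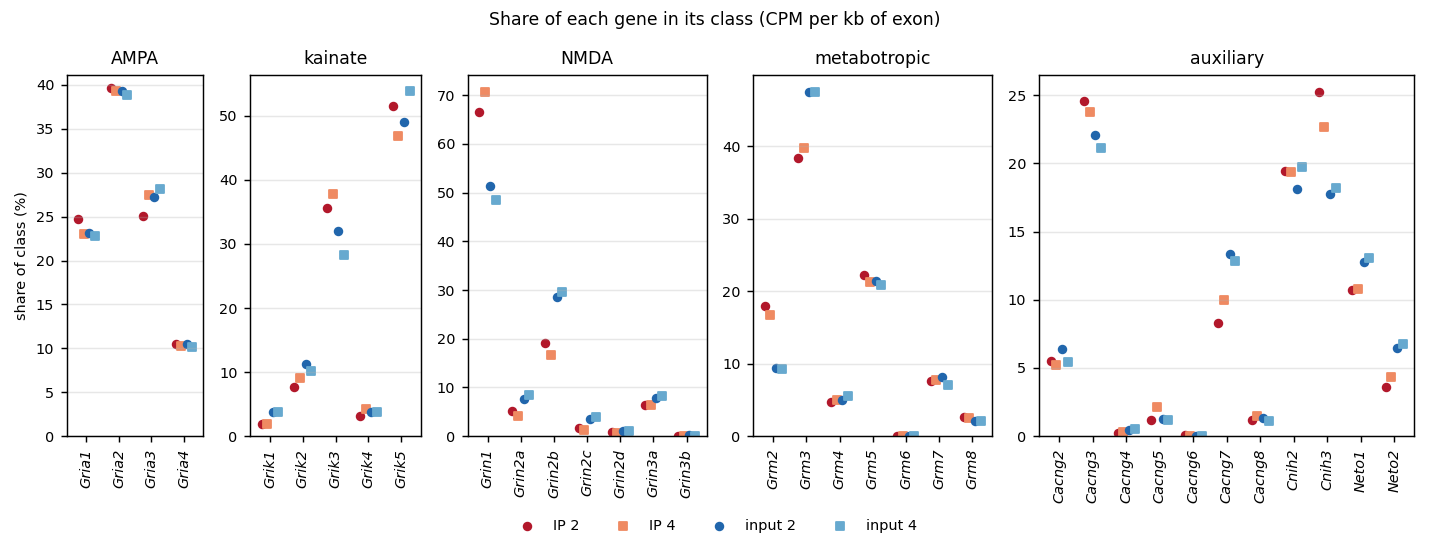
Share of 34 of the 35 genes in the summed level of their class, in percent of CPM per kilobase of exon, for each library; colours and symbols stand for IP 2, IP 4, input 2 and input 4, and each panel has its own axis. Grin1 takes 66.5% and 70.7% of the NMDA class in IP against 51.4% and 48.5% in input, Grm2 takes a larger and Grm3 a smaller share of the metabotropic class in IP, and the AMPA shares nearly coincide.

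Metabotropic receptors held 2 of the 3 genes that rose, which were 28.6% of those tested in the class. That share lay between the 23.4% of all genes tested and the 34.4% of genes in the range of levels of the receptor genes. Grm2, a presynaptic autoreceptor of glutamatergic axons that lowers release, stood at 73.3 and 66.9 CPM in IP 2 and IP 4 and at 35.7 and 32.5 CPM in input 2 and input 4. Both IP libraries lay far above both input libraries, a 2.05-fold difference (log2 fold change 1.04, SE 0.11, edgeR adjusted p = 5.39e-07), and the gene was called under all 13 alternatives (0.76 to 1.11). An antisense gene without a line in the files, Gm28111, overlaps 9.60% of the exon length of Grm2. Its group II partner Grm3, which is made by astrocytes as well as neurons, was at 97.5 and 99.3 CPM in IP and 112 and 105 CPM in input. That is a log2 fold change of -0.14 (95% interval -0.34 to 0.06), which did not pass, although Grm3 was called as lower with library sizes alone (-0.40, edgeR adjusted p = 0.00182) and with the stricter filter (-0.25, edgeR adjusted p = 0.0288). The ratio of Grm3 to Grm2 per kilobase was 2.14 and 2.38 in IP and 5.03 and 5.16 in input.

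In group III, Grm8, a presynaptic receptor with high affinity for glutamate, was at 21.6 and 19.9 CPM in IP and at 15.6 and 15.2 CPM in input. It rose by 0.43 on the log2 scale (SE 0.14, edgeR adjusted p = 0.0199). The call did not hold without IP 2 (0.39), without input 2 (0.45) or without input 4 (0.42), nor with library sizes alone (0.17) or the stricter filter on low counts (0.31), with adjusted p from 0.0584 to 0.356 by edgeR in these 5 cases. Grm7, the low-affinity receptor of active zones, was at 37.2 and 37.3 CPM in IP and 37.0 and 30.0 CPM in input (log2 fold change 0.15, 95% interval -0.11 to 0.42). Grm4, also presynaptic, was at 23.4 and 24.4 CPM in IP and 23.1 and 23.7 CPM in input (0.03, 95% interval -0.24 to 0.31). Grm6, the receptor of retinal ON bipolar cells, had 0 and 3 counts in IP and 5 and 0 in input, at most 0.110 CPM, and was not tested.

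In group I no gene was called. Grm5, the main postsynaptic Gq-coupled receptor of forebrain, was at 190 and 179 CPM in IP and 170 and 154 CPM in input, which is 0.19 on the log2 scale (SE 0.09, 95% interval -0.01 to 0.39, edgeR adjusted p = 0.115). Its IP libraries lay above its input libraries, and with the correction for GC content and transcript length it was called, at 0.33. The median over the 7 metabotropic genes tested was 0.15, and it turned to -0.11 with library sizes alone.

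Per kilobase of exon, Grm3 was the most abundant metabotropic gene, with 38.3% and 39.7% of the class in IP and 47.5% and 47.5% in input. Grm5 followed at 21.8% ± 0.666 in IP and 21.1% ± 0.433 in input (SD, n = 2 each). Grm2 had 17.9% and 16.7% in IP and 9.44% and 9.20% in input. Grm2 came next in both groups, with a share in IP below that of Grm5 by more than the spread between libraries. Scaled to the longest transcript, Grm7 (9.33%) lay above Grm2 (8.52%) in input.

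Kainate receptor subunits held 2 genes of 5 that fell (40% beside 22.4% of all genes tested) and none that rose (beside 23.4%). Grik1, which encodes GluK1, a subunit of interneurons in cortex, stood at 4.68 and 4.07 CPM in IP and at 9.17 and 9.49 CPM in input. The groups were well apart, with 2.13-fold more in input (log2 fold change -1.09, SE 0.21, edgeR adjusted p = 0.000273), and the call held under all 13 alternatives (-1.35 to -0.98). GABAergic markers as a list had 1 of 12 (8.33%) higher and 4 (33.3%) lower, beside 23.4% and 22.4% of all genes tested. Their summed level overlapped between the groups. Grik2, which encodes the principal subunit GluK2, was at 36.2 and 38.1 CPM in IP and at 54.2 and 50.6 CPM in input (log2 fold change -0.50, SE 0.11, edgeR adjusted p = 0.00139), and with the correction for GC content and transcript length it stood at -0.25 and was not called (edgeR adjusted p = 0.0670).

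The other kainate genes were not called. Grik3 was at 114 and 108 CPM in IP and 104 and 94.8 CPM in input, above input in both IP libraries, with a log2 fold change of 0.16 (95% interval -0.05 to 0.36) that turned to -0.10 with library sizes alone. Grik5, the most abundant kainate gene per kilobase and a subunit that needs a GluK1, GluK2 or GluK3 partner, was at 94.7 and 76.8 CPM in IP and 91.6 and 104 CPM in input (log2 fold change -0.19, 95% interval -0.42 to 0.05). It was called as lower without IP 2 (-0.33), with library sizes alone (-0.45), with the stricter filter on low counts (-0.30) and with the correction for GC content and transcript length (-0.52). Grik4 was at 6.52 and 8.03 CPM in IP and 8.29 and 8.36 CPM in input. The ratio of Grik2 to Grik3 per kilobase was 0.216 and 0.240 in IP and 0.354 and 0.362 in input.

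Auxiliary subunits were the class with the most lower genes. All 10 tested had a negative log2 fold change, as did 8635 of all 16600 genes tested, and the median was -0.54 beside -0.04 for all genes. Of the 10, 7 (70%) were called as lower and none as higher. As lower were called 22.4% of all genes tested, and 20.4% in the range of levels of the receptor genes. With the correction for GC content and transcript length 9 were called as lower, and the median was -0.64 beside -0.03 for all genes. With the stricter filter on low counts 6 of 9 tested were called as lower, as were 3115 of all genes, and the median was -0.58 beside -0.01. Without each library the median ran from -0.65 to -0.48. The summed level of the 11 auxiliary genes was 584 and 513 CPM in IP 2 and IP 4 and 796 and 851 CPM in input 2 and input 4, whereas that of the 4 AMPA genes was 1667 and 1669 CPM in IP and 1802 and 1830 CPM in input.

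Both Neto genes were lower. Neto2, which encodes an auxiliary subunit that slows the desensitisation of kainate receptors, stood at 38.7 and 40.6 CPM in IP and at 88.1 and 98.6 CPM in input. The level in input was 2.35 times that in IP (log2 fold change -1.24, SE 0.11, edgeR adjusted p = 3.44e-08). Neto1, which was first described with NMDA receptors and also joins kainate receptors, was at 156 and 137 CPM in IP and at 237 and 260 CPM in input (log2 fold change -0.76, SE 0.10, edgeR adjusted p = 4.04e-06). Both calls held under all 13 alternatives.

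Among the TARPs, Cacng7 encodes the type II TARP gamma-7. It stood at 35.4 and 37.0 CPM in IP and at 72.3 and 74.6 CPM in input, which is -1.02 on the log2 scale (SE 0.11, edgeR adjusted p = 3.80e-07). Cacng2, the gene of stargazin, the founding TARP that brings AMPA receptors to the synapse through PSD-95, was at 53.2 and 43.9 CPM in IP and at 77.9 and 71.8 CPM in input (log2 fold change -0.62, SE 0.11, edgeR adjusted p = 0.000198). For Cacng7 and Cacng2 all IP libraries lay below all input libraries, and the calls held under all 13 alternatives.

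Cacng4, a TARP that is also found in glia, was at 1.32 and 1.55 CPM in IP and 3.72 and 4.30 CPM in input, from 50 and 67 counts in IP and 169 and 186 in input (log2 fold change -1.48, SE 0.32, edgeR adjusted p = 0.000992). Of the 10 oligodendrocyte precursor markers 1 (10%) was higher and 2 (20%) were lower, beside 23.4% and 22.4% of all genes tested. Of the 10 oligodendrocyte markers 2 (20%) were higher and 6 (60%) lower. Cacng3, the TARP gene with the highest level per kilobase, was at 119 and 100 CPM in IP and at 136 and 140 CPM in input (log2 fold change -0.33, SE 0.10, edgeR adjusted p = 0.0119). That call was lost without IP 4 (-0.21) and without input 4 (-0.30), with adjusted p of 0.180 and 0.0535 by edgeR (range over 13 alternatives 7.20e-11 to 0.180).

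The remaining TARP genes were not called. Cacng8, a TARP best known from hippocampus, was at 4.71 and 5.34 CPM in IP and 7.13 and 6.10 CPM in input, or -0.39 on the log2 scale with a 95% interval of -0.86 to 0.07. Cacng5 was uneven within IP, at 8.13 and 12.4 CPM, around 10.7 and 11.2 CPM in input. Cacng6 had 7 and 2 counts in IP and 7 and 3 in input and was not tested.

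The cornichons encode exporters that slow the closing of AMPA receptors, and 1 of the 2 was called. Cnih2 was at 46.4 and 40.4 CPM in IP and at 55.1 and 64.5 CPM in input (log2 fold change -0.46, SE 0.12, edgeR adjusted p = 0.00334). Its call was lost without input 4 (-0.34, edgeR adjusted p = 0.0629, the highest over 13 alternatives, of which the lowest was 5.60e-09). Cnih3 overlapped between the groups, at 121 and 94.7 CPM in IP and 108 and 120 CPM in input (log2 fold change -0.08, 95% interval -0.32 to 0.16). Per kilobase, the ratio of Cnih2 to Cnih3 was 0.769 and 0.856 in IP and 1.02 and 1.08 in input.

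Per kilobase of exon, Cacng3 (22.05% and 21.2%), Cnih2 (18.1% and 19.7%), Cnih3 (17.7% and 18.2%), Cacng7 (13.3% and 12.8%) and Neto1 (12.8% and 13.05%) led the class in input. There neither Cnih2 and Cnih3 nor Cacng7 and Neto1 differed beyond their spread. In IP, Cacng3 (24.6% and 23.7%) and Cnih3 (25.2% and 22.6%) overlapped, and Cacng7 (8.31% and 9.95%) lay below Neto1 (10.7% and 10.8%). Scaled to the longest transcript, the mean share of Cacng7 was above that of Neto1 in input (14.0% and 12.5%) and below it in IP (9.80% and 10.4%). That of Cnih3 (24.0%) was then close to that of Cacng3 (23.5%) in IP.

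Other genes of the pathway were counted in the same way, beside 23.4% of all genes tested as higher and 22.4% as lower, or 34.4% and 20.4% among genes in the range of levels of the receptor genes. Of 14 genes for further AMPA receptor auxiliary and assembly proteins 9 (64.3%) were higher and 3 (21.4%) lower, with a median of 0.46, and with library sizes alone 3 were higher and 4 lower (median 0.20). Frrs1l, which encodes an assembly factor of AMPA receptors in the endoplasmic reticulum, was lower at 255 and 233 CPM in IP against 479 and 490 CPM in input (log2 fold change -0.99, SE 0.09). Porcn, which retains AMPA receptors in that compartment, was higher at 83.8 and 76.3 CPM in IP against 41.2 and 43.8 CPM in input (0.91, SE 0.11), as was Olfm2, a secreted olfactomedin protein gene (0.87, SE 0.10). The adjusted p of these 3 genes by edgeR was 6.63e-08, 1.46e-06 and 1.84e-06.

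Of 16 scaffold and trafficking genes 8 (50% beside 23.4% of all genes) were higher and 6 (37.5% beside 22.4%) lower, and the median of 0.25 became -0.01 under library sizes alone. Nsf, the ATPase that binds GluA2 and disassembles SNARE complexes, rose by 1.44 (SE 0.08), Ncdn, the gene of the metabotropic receptor partner neurochondrin, by 1.43 (SE 0.10), and Shank2, a scaffold of the postsynaptic density, by 2.36 (SE 0.18). Shank2 was uneven within IP, at 361 and 661 CPM against 93.1 and 106 CPM in input, and stood at 1.86 without IP 4. The 6 lower genes included Homer2 (-0.83, SE 0.10) and Dlg4 (-0.64, SE 0.09), the genes of a Homer scaffold of group I receptors and of PSD-95, and Homer3 (-2.15, SE 0.72), which had a mean of 0.518 CPM. These 3 were chosen after their values were seen. Of 10 genes that carry the signal of metabotropic receptors 8 (80% beside 23.4% of all genes) were higher and none lower, with a median of 0.46 that was 0.20 with library sizes alone, where 5 were higher and 1 lower. Plcb1, the phospholipase downstream of Gq, rose by 0.76 (SE 0.10), and Gnai1, an inhibitory G protein subunit, by 0.63 (SE 0.09).

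The delta receptor gene Grid1, whose product binds cerebellins and is related to these classes by sequence, was not called, with a log2 fold change of 0.08 (95% interval -0.23 to 0.40). Of the RNA editing enzymes, Adarb1, which edits the Q/R site shown above, was at 126 and 135 CPM in IP and 162 and 187 CPM in input, lower by edgeR (-0.42, SE 0.10, adjusted p = 0.00195). Adar was higher, at 135 and 125 CPM against 90.01 and 83.9 CPM (0.58, SE 0.10, edgeR adjusted p = 9.24e-05). Adarb2, which has no known editing activity, was lower at 7.66 and 14.8 CPM against 17.4 and 22.8 CPM (-0.84, SE 0.22, edgeR adjusted p = 0.00451), and stood at -0.43 without IP 2, where 1 of the 3 enzyme genes was lower in place of 2.

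**Figure D4:**
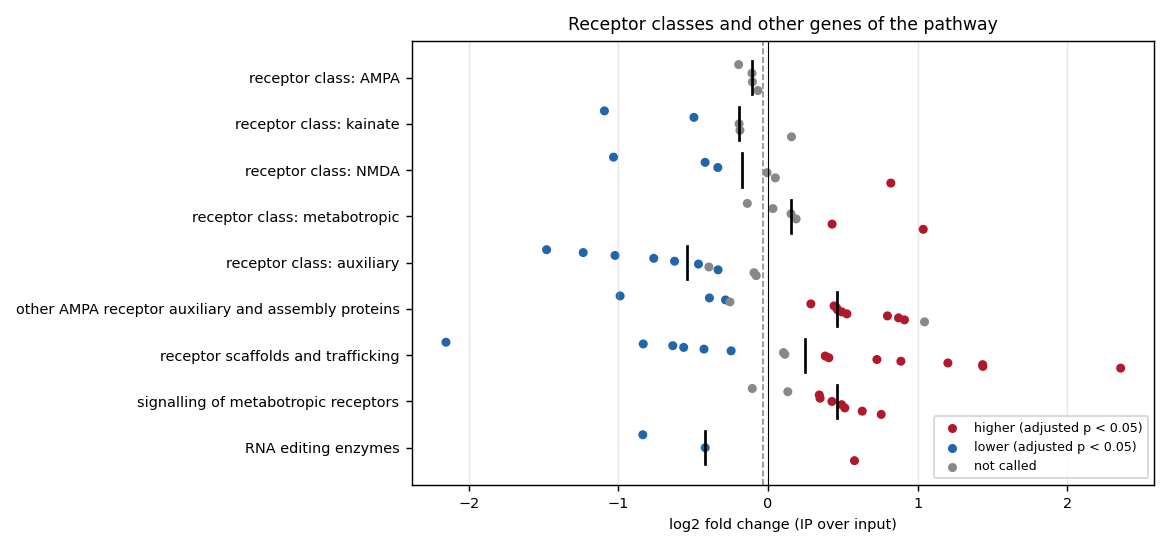
Log2 fold change of IP over input for genes tested in the 5 receptor classes and in 4 lists of other genes of the pathway (1 metabotropic receptor and 1 signalling gene are not drawn); red and blue points are called as higher and lower, grey points are not called, black bars are medians over all genes tested of each class or list and the dashed line is the median of all genes (-0.04). The auxiliary class has its median at -0.54, whereas the list of other AMPA receptor auxiliary and assembly proteins has its median at 0.46.

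Properties that the choice of genes did not use were set beside the values. Over the 32 genes tested, Spearman's rho of the log2 fold change was 0.12 with transcript length, 0.06 with GC content and 0.17 with mean level, as descriptions across genes that share the same 4 libraries. Receptor transcripts were long: 17 of the 32 fell in the longest of 4 equal groups of all annotated genes tested (4845 bases and more). In that group 776 of 3776 genes were higher and 1080 lower, with a median of -0.09, whereas in the next shorter group 1100 were higher and 676 lower, with a median of 0.07. Only Grin2a shared more than 1% of its 50-base words with transcripts of genes elsewhere in the genome (14.3%), so reads dropped for aligning to several places could affect its count more than that of the other 34.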

How the data were processed

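The authors deposited, for each of the 4 libraries, unnormalised counts of reads per gene. The submitters' processing notes name mm10, STAR 2.0.0e and HTSeq. The annotation, the strand setting and the kit were not given in the sources used here. Summary lines without a gene name did not enter library sizes, and their shares of records differed between the groups. Reads outside features were 7.31% and 7.54% in IP 2 and IP 4 and 14.9% and 13.5% in input 2 and input 4. Ambiguous reads were 1.54% and 1.54% in IP and 5.07% and 5.09% in input, and reads without a unique alignment 37.0% and 38.0% in IP and 32.1% and 30.7% in input. Genes sharing exons with others, such as Grin1 and Grm2, may have lost or shared reads, and not equally in IP and input. The part of this in their differences was not tested.

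Of 21923 genes with counts, 16600 passed filterByExpr (minimum count 10, minimum total 15) and were tested in edgeR 4.0.16 (R 4.3.3; TMM; quasi-likelihood test, IP against input, no block; two-sided; Benjamini-Hochberg adjusted p of 0.05). Standard errors were the log2 fold change over the root of the F statistic. On simulated data with these 16600 genes the method recovered 70% of genes changed 1.5-fold and 98% of those changed 2-fold (50 each, all of at least 5 CPM), with 13 false calls among 16400. The changed genes went in random directions and were far fewer than the 45.8% called in the data. Their spread came from these same 4 libraries. The simulation therefore does not measure errors under a shift as broad as that between IP and input. Lengths, GC content and coordinates came from GENCODE vM21 (GRCm38, the assembly of mm10), in which all 35 receptor symbols matched. Shares within a class are of CPM per kilobase of all annotated exons.

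The receptor genes, lists, rules and alternatives were chosen with earlier results of these data known. Genes of the symbol rule are named, except where a gene is not reported here; counts and medians include it. Fuller values go to called genes with an absolute log2 fold change of at least 0.5 and a mean of 5 CPM, and to the most abundant gene of each class. From each pathway list up to 3 called genes of at least 5 CPM with the largest change are named, with Grid1 and the editing enzyme genes. Alternatives were DESeq2 1.42.0, DESeq2 size factors, library sizes alone, no filter, a stricter filter (5 CPM in 2 libraries), a replicate block, offsets for GC content and length (also with the block), omission of Rn45s and of 5 genes with very high values in IP, and leaving out each library. Figures used matplotlib 3.10.9.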

Additional observations from a re-analysis of the deposited data

How the results depend on the processing

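Of the receptor genes called, Grin1, Grm2, Grin2c, Grik1, Neto1, Neto2, Cacng2 and Cacng7 kept their direction and call under all 13 alternatives, and Cacng4 under the 12 in which it was tested. DESeq2, DESeq2 size factors and leaving out Rn45s with 5 genes very high in IP changed no call among the 32 genes. With library sizes alone 20 receptor genes were lower (12 in the main analysis), and 2153 of all genes were higher and 5902 lower. There the metabotropic median turned to -0.11, Grik3 to -0.10, Grin3a to -0.21, Grm4 to -0.23, Grm5 to -0.071 and Grm7 to -0.11, which the shift of the median of all genes by -0.26 accompanies by construction. With the stricter filter Grin3a was at -0.067 and Grm4 at -0.083, and without a filter Grin2d was at 0.011. With offsets for GC content and length Gria2 turned to 0.18, Grin2b to 0.17 and Grm4 to -0.29, while the median of all genes was -0.03. With the replicate block added these genes stood at 0.18, 0.17 and -0.29, Grm4 then being called as lower (edgeR adjusted p = 0.0434). The cause of these changes was not tested.

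With each library left out in turn, some log2 fold changes turned. They ranged from -0.42 to 0.19 for Cacng5, -0.12 to 0.12 for Grin2d and -0.25 to 0.10 for Cnih3. With 1 library left in a group, that library is assumed to vary like the others. The labels do not say that equal numbers mark one animal or day, and the deviations of same-numbered libraries correlated at 0.094 across genes. The replicate block gave 3 higher and 13 lower receptor genes (4314 and 4037 of all genes), adding Gria3 at -0.20. Of the 30 genes of at least 5 CPM, 18 had class shares that did not overlap between the groups, with 17 for the longest transcript and 19 without length correction. No such count was made for other genes. In level, the groups did not overlap in 73.0% of all genes tested. Counts with a library left out are not comparable, since fewer libraries overlap less by construction. At 0 to 15 counts a library, Grm6, Cacng6 and Grin3b were below what this depth can compare.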
